A study of Mus musculus with 12 samples.

Results

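Major urinary proteins are small secreted carriers of the lipocalin family that bind pheromones and other volatile molecules. In mice they are made mainly by hepatocytes, released into the blood and passed into the urine, and males excrete more of them than females. Their genes are known to respond in liver to androgens, to the pulse pattern of growth hormone, to thyroid hormone and to glucocorticoids, and individual members differ in tissue and in hormone response. Mup3, Mup4 and Mup5 are 3 members of this family: Mup3 is a liver member, Mup4 is best known from nasal and lacrimal tissue, and Mup5 from salivary and lacrimal gland.

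The probe sets described here are those whose gene symbol in the platform annotation starts with Mup and a number. These were 3 of 22626 non-control probe sets on the array, standing for 2 of 12393 genes: probe sets 1427631_x_at and 1427249_x_at for Mup3, and probe set 1426166_at for Mup5. No listed probe set carried the symbol Mup4, and 0 listed probe sets carried several Mup symbols; 1555 probe sets of the array had no entry in the annotation and were given no gene name here. RefSeq's table for assembly GRCm38.p6 holds 22 protein-coding Mup genes, all on chromosome 4, so most of the family had no named probe set. Both Mup3 probe sets end in _x_at, the array maker's mark for probes that may also bind other, similar transcripts, as 1512 probe sets (6.68%) did. The signals below are therefore those of the probe sets, and RNA of other Mup genes may add to them.

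RNA came from livers of 12 female C57BL/6 mice, an inbred strain. Each mouse had its own Affymetrix array, and each of 4 groups held 3 mice. The groups were testosterone at treatment end (0.9 mg in 100 µl sesame oil under the skin, 2 injections a week for 3 weeks), vehicle at treatment end (the oil alone on the same schedule), testosterone after withdrawal and vehicle after withdrawal. Withdrawal lasted 12 weeks by the sample labels and 3 weeks by the series' design text, and its length was not settled here. The labels pose the question of short-term and long-term effects of the hormone on the female liver, and give no age and no gonadal status of the mice.

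The promoters of Mup3 and Mup4 are shown because they are the members described here whose upstream sequence RefSeq's GRCm38.p6 table holds, and because they show how alike the regulatory regions of these genes are. Each line gives the 250 bases before the annotated start, 5′ to 3′ on the gene's strand. In capitals are TATATAA, the letters of a TATA box, and ATCAAT, a site read by Onecut factors.
Mup3, chr4:62087318-62087567, minus strand: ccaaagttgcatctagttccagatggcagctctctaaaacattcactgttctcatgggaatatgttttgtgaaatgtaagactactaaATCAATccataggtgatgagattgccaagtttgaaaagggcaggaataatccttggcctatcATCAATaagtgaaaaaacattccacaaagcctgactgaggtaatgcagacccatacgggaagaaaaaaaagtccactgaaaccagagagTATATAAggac
Mup4, chr4:59960668-59960917, minus strand: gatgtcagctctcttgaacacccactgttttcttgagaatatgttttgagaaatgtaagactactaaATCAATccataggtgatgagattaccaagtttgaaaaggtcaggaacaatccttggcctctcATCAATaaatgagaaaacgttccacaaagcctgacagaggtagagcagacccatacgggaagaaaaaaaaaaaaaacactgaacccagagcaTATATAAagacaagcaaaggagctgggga
Over the whole windows of 300 bases, which run 50 bases past the start, the Mup3 and Mup4 promoters were identical at 89.2% of 279 aligned bases. Against all 13 other Mup promoters of the table, that of Mup3 was identical at 85.4% to 94.2% of the aligned bases (median 88.5%), the closest being Mup21. Both strands were searched. TATATAA was present in 13 of 14 Mup promoters, against 3.24% of 32851 promoters of this length, and ATCAAT in 14 of 14, against 7.54%. TATATAA began 11 bases before the annotated start in Mup3 and 29 bases before it in Mup4. In Mup11 it began 2 bases before the start, and in Mup14 past it. Whether each hit works as a TATA box was not tested. Mup3 held ATCAAT 2 times, beginning 162 and 100 bases before the start, and Mup4 also 2 times, at 183 and 121 bases. TGTTCT, 1 arm of the element that steroid receptors bind, was present in 2 of 14 (18.97% of all), among them Mup3. TTCNNNGAA, the STAT5 palindrome, was in 0 of 14 (8.3% of all), and TTGCNNAA, a C/EBP site, in 0 of 14 (10.8% of all). These motifs do not overlap one another in the Mup3 window, and the counts describe letters in this window only. Since the 14 promoters are so alike in sequence, their hits are not independent of one another.

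The authors' values are linear array signals scaled so that the 2% trimmed mean was 100.05 on each array. Array medians lay between 20.03 and 22.4, correlations between arrays of a group were 0.979 to 0.989, and albumin (Alb), the defining hepatocyte product, averaged 4791 to 5530.5 in the 4 groups. Beta-actin control probe sets give a 3′/5′ ratio that rises with incomplete or degraded RNA. At treatment end this ratio was 2.11 ± 0.0769 with testosterone and 1.52 ± 0.108 with vehicle, with no overlap, and after withdrawal it was 1.62 ± 0.179 with testosterone and 1.77 ± 0.154 with vehicle (SD, n = 3 each). Vehicle mouse 2 of the end of treatment stood apart by its acute phase genes: Saa1, serum amyloid A, read 5042 there, against 379 and 247 in the other vehicle mice of that time. Results of that time that rest on this mouse are given with and without it, a check chosen after seeing the data for the gene lists.

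The 3 Mup probe sets covered very different parts of the signal range. Probe set 1427631_x_at of Mup3 read 2521 to 4682 and ranked 25 to 179 from the top among the 22626 probe sets of its array, so it was among the brightest signals of these arrays. No flag for saturation was given in the sources used here. This probe set reached 35.2% to 74.6% of the highest signal on its array, so brighter signals were recorded on each array. Whether partial saturation lowered its differences between groups was not tested. The Mup5 probe set read 128 to 228, above 79.98% to 86.9% of the probe sets of its array. The second Mup3 probe set, 1427249_x_at, read 2.02 to 18.95, below the array median on all 12 arrays, and lay at or under the floor of 4.84, the 25th percentile of all signals, in 4 mice. It failed the filter on low signals, a signal over the median of the array in 3 or more of the 12 mice, which the other 2 Mup probe sets passed among 12108 in all. These signals and ranks are not read as relative amounts of RNA between probe sets.

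**Figure D1:**
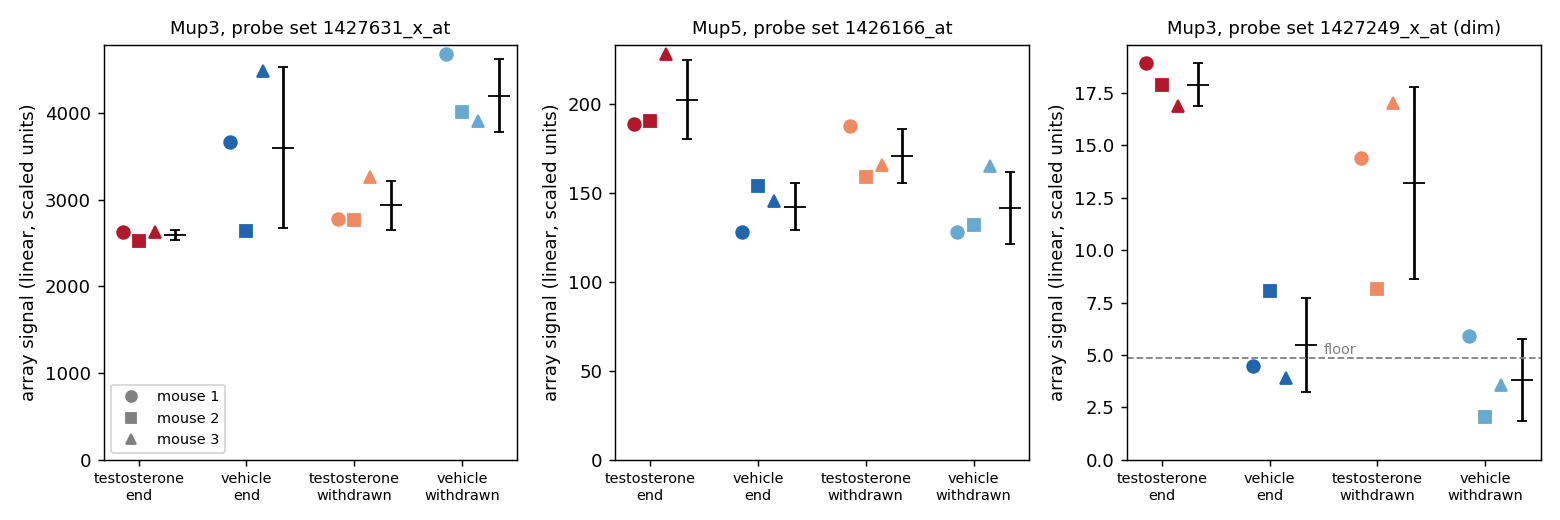
Array signal (linear, scaled units) of the 3 Mup probe sets, 1 point per mouse with mouse number by shape, for testosterone and vehicle at treatment end and after withdrawal; black bars are the mean ± SD of 3 mice. The bright Mup3 probe set is lower in testosterone mice at both times, with vehicle mouse 2 of the end of treatment (2638) close to the testosterone mice (2521 to 2632), whereas the dim Mup3 probe set is higher at both times and Mup5 is higher at treatment end and overlaps after withdrawal.

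The bright Mup3 probe set was lower in livers of testosterone mice at treatment end. Mice 1, 2 and 3 read 2625, 2521 and 2632 with testosterone, against 3668, 2638 and 4490.5 with vehicle. The groups did not overlap, but only just: the testosterone mice lay close together, while the vehicle mice ranged widely and mouse 2 lay just above the highest testosterone mouse. Means were 2592 ± 62.3 and 3599 ± 928 (SD, n = 3 each), and the log2 change was -0.44 ± 0.14 (standard error of the limma fit, 95% interval -0.74 to -0.14, 1.36-fold lower), with an adjusted p of 0.0417 in limma over 12108 probe sets. In that comparison 10.1% of all probe sets tested were called lower and 9.31% higher (19.4% in all), and 17.6% had all testosterone mice under all vehicle mice. Without vehicle mouse 2 the change was -0.65 (adjusted p = 0.00159 in limma), and without vehicle mouse 3 it was -0.26 (adjusted p = 0.16). The call was also lost without vehicle mouse 1 (-0.41, adjusted p = 0.117) or without testosterone mouse 1 (-0.45, adjusted p = 0.0902), 2 (-0.42, adjusted p = 0.113) or 3 (-0.45, adjusted p = 0.0845). With the actin ratio in the fit, 2.11 against 1.52 here, the change was 0.14 ± 0.23 (adjusted p = 0.883). In that fit 86 of the 12108 probe sets were called, against 2344 without the ratio. Treatment and the ratio cannot be told apart in it, since the ratios of the groups did not overlap.

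After withdrawal the same Mup3 probe set was again lower in testosterone mice. They read 2775, 2772 and 3263, against 4682, 4016 and 3909.6 in vehicle mice, so that each testosterone mouse lay under each vehicle mouse. Means were 2937 ± 283 in testosterone mice and 4202 ± 418 in vehicle mice (SD, n = 3 each). The log2 change was -0.52 ± 0.14 (95% interval -0.82 to -0.21, 1.43-fold lower), with an adjusted p of 0.0496 in limma, just under the threshold of 0.05. Of all probe sets tested, 2.73% were called lower and 2.16% higher at this time (4.9% in all), and in 13.6% all testosterone mice lay under all vehicle mice. Here the actin ratio was 1.62 with testosterone and 1.77 with vehicle, and with it in the fit the change was -0.68 (adjusted p = 0.0103). The call was lost when any 1 of the 6 mice was left out, with changes of -0.59 to -0.44 and adjusted p of 0.0633 to 0.164. Of 8 markers of exocrine pancreas, 2 passed the filter. The summed signal of the 8 was 332 to 1464 in testosterone mice and 117 to 211 in vehicle mice at this time. At treatment end the sum was 306 to 384 in testosterone mice and 226 to 250 in vehicle mice. The part of pancreas signal in the Mup3 results was not tested. In whole liver, fewer cells that express a gene and less RNA per cell cannot be told apart.

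The dim Mup3 probe set went the other way. At the end of treatment it read 18.95, 17.9 and 16.9 in testosterone mice, against 4.48, 8.07 and 3.92 in vehicle mice. All testosterone mice lay above all vehicle mice, 2 of which were at the floor, and the difference was at least 3.11-fold. Groups lay apart in that direction in 20.5% of the probe sets that passed the filter, which this probe set did not. In the limma fit without the filter the log2 change was 1.64 ± 0.28 (adjusted p = 0.014), a fit in which 3.15% of 22626 probe sets were called higher. After withdrawal it read 14.4, 8.13 and 17.04 in testosterone mice, against 5.91, 2.02 and 3.54 in vehicle mice. The groups again did not overlap, as in 10.4% of the probe sets that passed the filter, and the difference was at least 2.43-fold. The adjusted p of 0.0746 missed the threshold (1.28 ± 0.28) in a fit with 0.712% called higher. The highest value of this probe set, 18.95, was below the median of its array. It was not fitted with the actin ratio or with a mouse left out. In the fit without the filter, which holds both Mup3 probe sets, the bright one was not called at either time (adjusted p = 0.179 and 0.225 in limma). Since both probe sets carry the symbol Mup3 and differed in direction at both times, the level of Mup3 RNA itself cannot be read from either alone; which transcripts each one binds was not tested.

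Mup5, whose probe set does not end in _x_at, was higher in testosterone mice at treatment end. Mice 1, 2 and 3 read 188, 190.3 and 228 with testosterone, against 128, 154 and 145 with vehicle. Each testosterone mouse lay above each vehicle mouse, as in 20.5% of all probe sets tested. Means were 202 ± 22.2 and 142 ± 13.2 (SD, n = 3 each), and the log2 change was 0.51 ± 0.13 (95% interval 0.23 to 0.79, 1.42-fold), with an adjusted p of 0.0151 in limma beside the 9.31% of probe sets called higher. Leaving out vehicle mouse 2 gave 0.57 (adjusted p = 0.0182). Leaving out vehicle mouse 1 (0.43, adjusted p = 0.0692) or testosterone mouse 3 (0.42, adjusted p = 0.0665) ended the call. With the actin ratio in the fit, 2.11 against 1.52, the change was 0.03 ± 0.22 (adjusted p = 0.98). The ratios of the groups did not overlap, so treatment and the ratio cannot be told apart in that fit. It called 86 of 12108 probe sets, against 2344 without the ratio.

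After withdrawal Mup5 was not called. Testosterone mice read 188, 159 and 165, against 128, 132 and 165 in vehicle mice, and the groups overlapped at vehicle mouse 3. Means were 171 ± 15.03 and 142 ± 20.3 (SD, n = 3 each). The log2 change was 0.28 ± 0.13 (adjusted p = 0.26 in limma), and its 95% interval, -0.00 to 0.55, leaves room for the change of 0.51 seen at treatment end. With the actin ratio in the fit, the change after withdrawal was 0.41 ± 0.12 (adjusted p = 0.108 in limma), against 0.03 at treatment end.

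**Figure D2:**
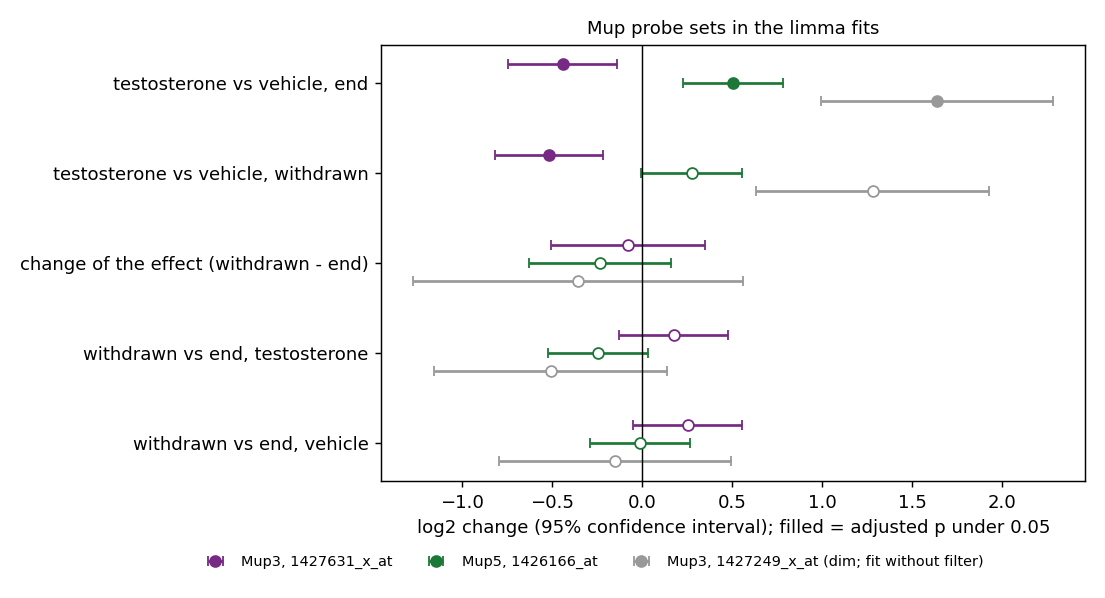
Log2 change of each Mup probe set in the 5 comparisons, with 95% confidence intervals from the limma fits; filled points have an adjusted p under 0.05, and the dim Mup3 probe set comes from the fit without a filter. The bright Mup3 probe set lies at -0.44 and -0.52 for testosterone against vehicle, Mup5 at 0.51 and 0.28, and the intervals of the comparisons between times include 0.

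The effect of testosterone on the Mup probe sets was not shown to differ between the times. The change of the effect, withdrawn minus end, was -0.08 ± 0.20 for the bright Mup3 probe set (95% interval -0.50 to 0.35, adjusted p = 0.847) and -0.23 ± 0.18 for Mup5 (-0.63 to 0.16, adjusted p = 0.468), in a comparison where limma called 4.77% of all probe sets. These values moved with the actin ratio in the fit, to -0.82 ± 0.31 for Mup3 and 0.38 ± 0.29 for Mup5 (adjusted p = 0.987 and 0.989 in limma). In that fit 1 of 12108 probe sets was called. Within testosterone mice, withdrawal against the end gave 0.18 ± 0.14 for Mup3 (adjusted p = 0.463) and -0.24 ± 0.13 for Mup5 (adjusted p = 0.254), with 10.2% of probe sets called. For both, the 3 mice of each time did not overlap: all withdrawn mice were higher for Mup3 (15.8% of probe sets) and lower for Mup5 (15.3%). For Mup5 they were only just apart, with 187.5 in withdrawn mouse 1 and 188.3 in mouse 1 of the end. Within vehicle mice the changes were 0.25 ± 0.14 for Mup3 (adjusted p = 0.237) and -0.01 ± 0.13 for Mup5 (adjusted p = 0.965), with 16.4% of probe sets called. These comparisons share mice with those of testosterone against vehicle. Ordered by mean signal, the bright Mup3 probe set ran upward from testosterone at the end (2592) through testosterone after withdrawal (2937) and vehicle at the end (3599) to vehicle after withdrawal (4202), and neither pair of the same treatment was called apart; testosterone after withdrawal and vehicle at treatment end, which differ in both, were not compared. For Mup5 the order was testosterone at the end (202), testosterone after withdrawal (171), vehicle at the end (142.1) and vehicle after withdrawal (141.5).

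**Figure D3:**
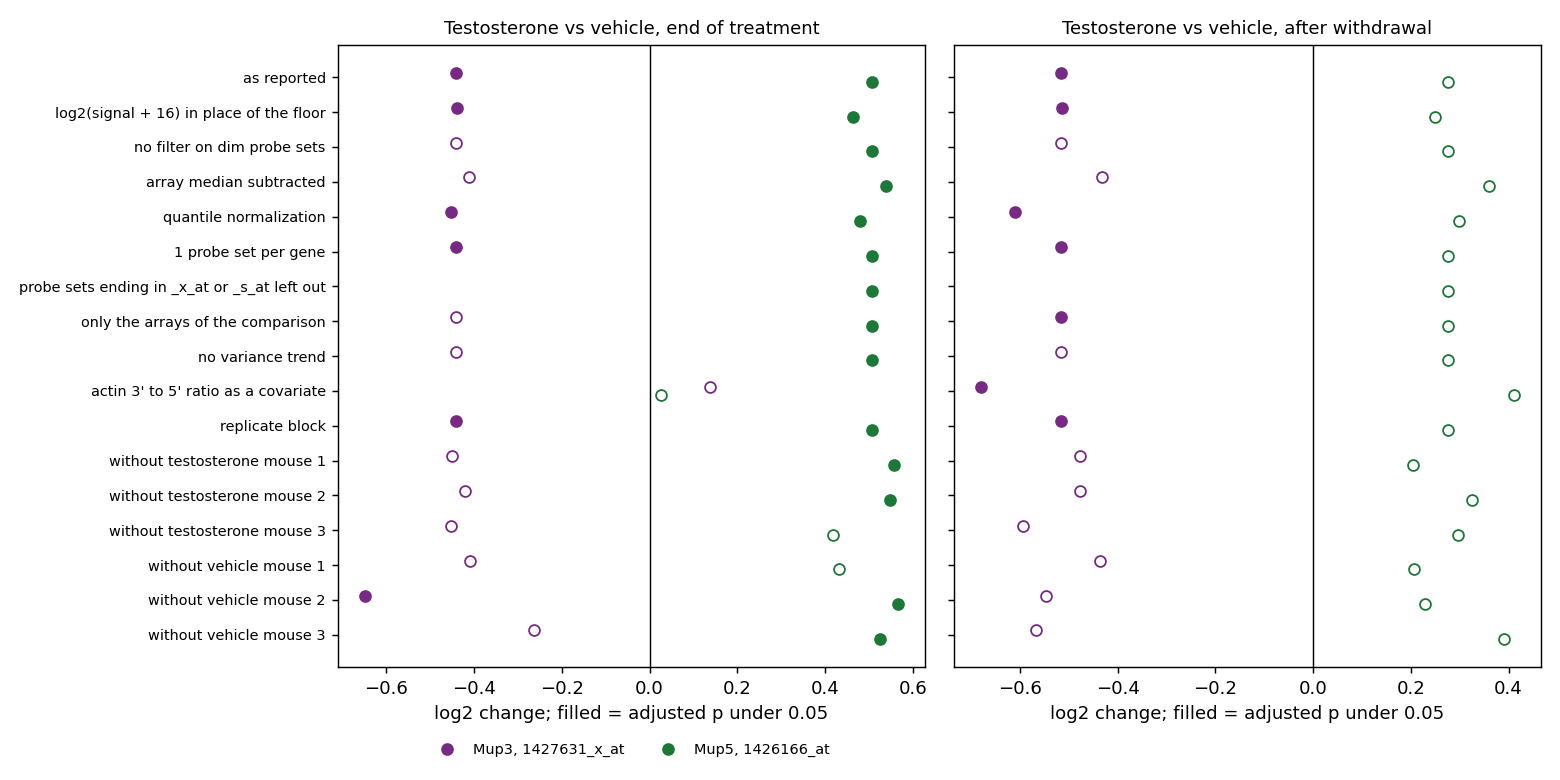
Log2 change of testosterone against vehicle for the bright Mup3 and the Mup5 probe set at treatment end (left) and after withdrawal (right) under each way of processing and with each mouse left out; filled points have an adjusted p under 0.05. At the end of treatment the Mup3 change turns from -0.44 to 0.14 with the actin ratio as a covariate, and after withdrawal it stays between -0.68 and -0.43.

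The bright Mup3 and the Mup5 probe set moved little beside other genes known for sex-biased expression in mouse liver. Of 16 tested genes of a list of male-biased liver genes, 16 were higher and 0 lower in testosterone mice at treatment end, with a median log2 change of 2.23 against 0.04 over all probe sets tested. Without vehicle mouse 2 of that time, 15 were higher and 0 lower. After withdrawal 14 were higher and 0 lower, with a median of 3.06 against -0.03. By size, with signals under the floor set to it, the log2 change at treatment end was 6.99 for the fatty acid hydroxylase Cyp4a12a, 6.10 for the steroid dehydrogenase Hsd3b5 and 4.20 for the steroid hydroxylase Cyp2d9. After withdrawal it was 7.27 for Hsd3b5, 5.79 for Cyp4a12a and 5.69 for the organic anion transporter Slco1a1. Of 17 tested female-biased genes 16 were lower and 0 higher at each time (medians -3.16 and -3.46). At treatment end 17 were lower without vehicle mouse 2. Both lists were chosen with earlier results of these data known, so these counts are no independent test. Among all probe sets tested, 9.31% were called higher and 10.1% lower at treatment end, and 2.16% and 2.73% after withdrawal. With the same floor, the sulfotransferase Sult2a2 gave -8.65 and -8.34, its relative Sult3a1 -8.18 and -7.02, and the cytochrome Cyp2b13 -7.83 and -7.59. The Mup5 increase of 0.51 was smaller than that of each of the 16 male-biased genes at treatment end, the smallest of which was 0.74 (Egfr). The bright Mup3 probe set ran against the direction of the male-biased list, and the dim one, at 1.64 and 1.28 in the fit without the filter, ran with it.

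**Figure D4:**
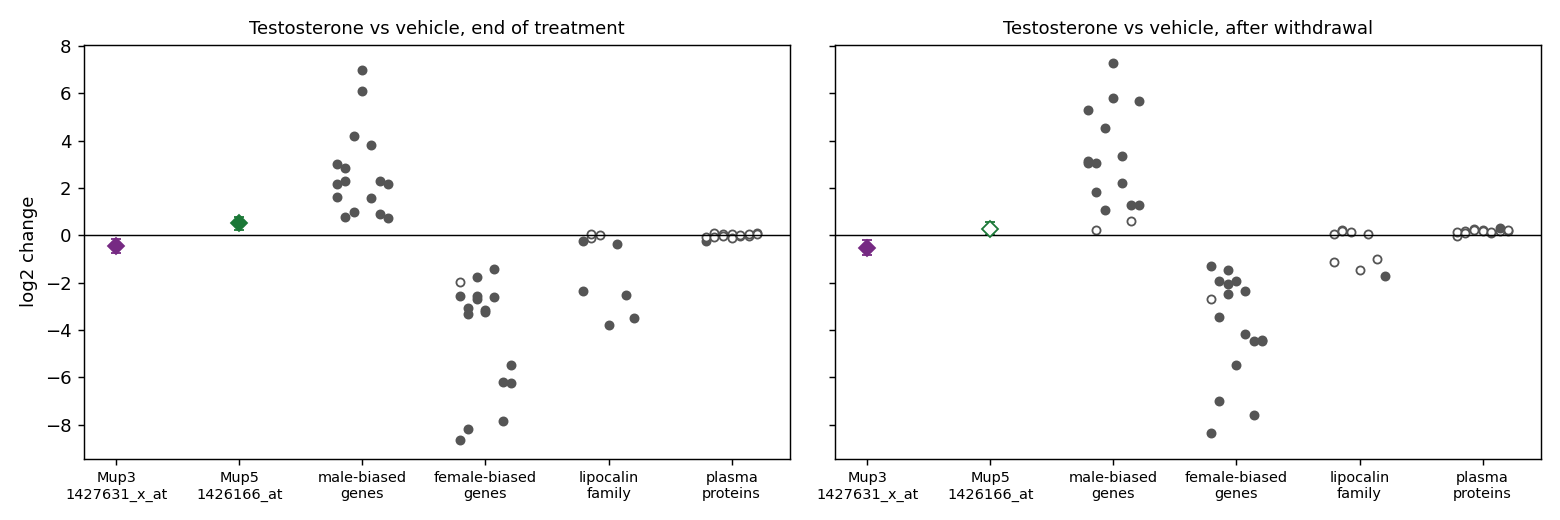
Log2 change of testosterone against vehicle for the bright Mup3 and the Mup5 probe set (diamonds, with 95% confidence intervals) beside single genes (circles) of 4 lists, at treatment end (left) and after withdrawal (right); filled symbols have an adjusted p under 0.05. Male-biased genes lie above 0 and female-biased genes below 0, up to 7.27 and down to -8.65, while both Mup probe sets lie within 0.52 of 0.

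Other lipocalins of liver, relatives of the Mup proteins, leaned downward in testosterone mice at treatment end. Of 9 tested members 6 were lower and 0 higher, with a median log2 change of -0.35. At that time 10.1% of all probe sets tested were called lower. The log2 change was -3.81 for the iron-scavenging protein Lcn2, -3.49 for the plasma glycoprotein Orm3, a bound because of the floor, and -2.52 for its relative Orm2 (adjusted p = 0.0103, 1.02e-05 and 0.0168 in limma). Vehicle mouse 2 stood far above the other vehicle mice for Lcn2 and Orm2. Lcn2 read 22.1, 20.7 and 9.25 in testosterone mice, against 102, 2008 and 56.4 in vehicle mice, and Orm2 averaged 35.4 ± 9.76 in testosterone mice, against 94.2, 1053 and 77.9 in vehicle mice. Without that mouse the log2 change was -2.23 for Lcn2, -1.32 for Orm2 and -3.20 for Orm3 (adjusted p = 0.00661, 0.00312 and 8.69e-05 in limma), 4 of 9 lipocalins were lower and 0 higher, and their median was -0.22. Rbp4, the retinol carrier of plasma, was not called (0.08, adjusted p = 0.424 in limma). After withdrawal only Orm3 of these 9 was lower (-1.72) and 0 were higher, with a median of 0.04. Of all probe sets tested, 2.73% were called lower then.

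Of 19 tested regulators of Mup transcription and growth hormone signalling, 6 were higher and 2 lower at treatment end (median 0.18). Without vehicle mouse 2 of that time, 5 were higher and 3 lower (median 0.10). After withdrawal 1 was higher and 2 were lower (median -0.05). Over all probe sets tested, 9.31% were called higher and 10.1% lower at treatment end, and 2.16% and 2.73% after withdrawal. Onecut1, the hepatic factor whose site was counted in the promoters, rose by 1.77 at treatment end, with 162 ± 30.7 in testosterone mice and 47.04 ± 4.66 in vehicle mice (SD, n = 3 each). After withdrawal its means were 58.2 ± 18.8 and 54.4 ± 27.7. Cish, a feedback inhibitor induced by STAT5, rose by 1.73 at the end and fell by 1.59 after withdrawal. Bcl6, a repressor that competes with STAT5, was higher by 3.01 after withdrawal, with 179 ± 43.03 in testosterone mice and 22.2 ± 5.03 in vehicle mice, and not called at the end (-0.01, adjusted p = 0.974). Cux2, a repressor of male-biased genes, gave -2.59 and -2.47 at these times, both bounds because of the floor. The growth hormone receptor Ghr (0.25 and 0.20), Stat5b (-0.10 and -0.26) and the glucocorticoid receptor Nr3c1 (-0.18 and -0.05) were not called at either time.

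Of 14 tested plasma proteins of hepatocytes, 0 were higher and 1 was lower at treatment end (Ahsg, -0.24; median of the list -0.01), and 2 were higher and 0 lower after withdrawal (Apoa1, 0.25, and Serpina1c, 0.30; median 0.19). For these counts and those of the markers below, 9.31% of all probe sets tested were called higher and 10.1% lower at treatment end. After withdrawal these shares were 2.16% and 2.73%. Among the marker lists, 6 of 10 Kupffer cell and macrophage markers were lower and 0 higher at treatment end. The summed signal of the 10 was 1985 to 2536 in testosterone mice and 2951 to 4673 in vehicle mice. Without vehicle mouse 2, 4 of 10 were lower and 0 higher. After withdrawal 0 of 10 were called, with sums of 1818 to 1949 in testosterone mice and 1464 to 2775 in vehicle mice. The 7 markers of lacrimal and salivary gland, tissues that also express Mup genes, included 1 that passed the filter, the amylase Amy1, which liver expresses too and which was not called. Of the 6 others, Bpifa2, Smr3a, Prol1, Dcpp1 and Aqp5 had group means of at most 4.78, under the floor. Scgb1b27, a secretoglobin of these glands, averaged 7.04 and 5.31 in testosterone and vehicle mice at treatment end, and 10.6 and 6.46 in testosterone and vehicle mice after withdrawal. Of the remaining marker lists at treatment end, 1 of 7 tested endothelial markers was lower, 1 of 5 stellate cell markers was higher, 1 of 7 hepatocyte markers was higher, and 1 of 2 tested markers of exocrine pancreas was higher (Cela1, 0.73). Without vehicle mouse 2, 0 stellate cell and 0 pancreas markers were called. After withdrawal 0 of 7 endothelial and 0 of 5 stellate cell markers were called, 1 of 7 hepatocyte markers was higher, and Cela1, a pancreatic elastase, was higher by 1.84 (adjusted p = 0.000136 in limma). The part of these cell types in the Mup results was not tested.

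Genes whose pattern over the 12 mice was most like that of each Mup probe set were found by the root mean square difference of log2 signals after each probe set's own mean was subtracted. For Mup5 they were the phosphatase Bpnt2 (0.109), the chaperone-related Uri1 (0.114) and the mitochondrial ribosomal protein Mrps24 (0.118). These 3 were called higher at treatment end, by 0.37, 0.34 and 0.39, and not after withdrawal. For the bright Mup3 probe set they were the kinase Rock1 (0.138), the folate enzyme Mthfd1 (0.143) and the mitochondrial membrane protein Atad3a (0.145). Mthfd1 and Atad3a were called lower at treatment end (-0.52 and -0.53), and 0 of the 3 were called after withdrawal. Since the genes were chosen by their pattern over the same 12 mice, calls shared with Mup5 or Mup3 follow from the choice. They are no separate result.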

How the data were processed

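The deposited values are array intensities: per the submitters' processing notes the authors used GCOS and MAS5 (versions not given), and the values show that each array had been scaled. Of 22690 probe sets 64 controls were set aside. Gene symbols come from the platform annotation, with 1 symbol for 20380 probe sets, several for 691 and none listed for 1555. Signals under 4.84 were set to that floor before log2. The 12108 probe sets over the median of the array in 3 or more mice were fitted with limma 3.58.1 in R 4.3.3 (4 group means, variance trend), two-sided, with Benjamini-Hochberg adjustment over all of them and a threshold of 0.05. Replicates are separate mice, and 3 per group limit the precision. Lists used 1 probe set per gene, that with the highest mean. Promoters were aligned with Biopython 1.88. The fit was checked on simulated data. Members, lists and motifs were chosen with earlier results of these data known. Every Mup probe set is named; up to 3 called list genes per time are named by size and 3 look-alike genes by smallest difference, and Rbp4, Egfr, the marker genes and the genes named as not called were added after their values were seen.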

Additional observations from a re-analysis of the deposited data

How the results depend on the processing

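Of the 2 Mup probe sets tested, 2 were called at treatment end (1 higher, 1 lower). The count was 1 with array medians subtracted, with only the 6 arrays of the comparison, without the variance trend, and with _x_at and _s_at probe sets left out (which removes Mup3), and 0 with the actin ratio as a covariate. With no filter it was 2, but these were Mup5 and the dim Mup3 probe set, and the bright one had an adjusted p of 0.179 in limma. Leaving out 1 mouse gave 0 to 2. After withdrawal 1 was called. The count was 0 with no filter, with array medians subtracted, without the variance trend and with _x_at and _s_at probe sets left out, and it was 0 for each mouse left out. Within vehicle mice 0 were called, and 0 to 1 with 1 mouse left out (Mup3, 0.43 without vehicle mouse 3 of the end, adjusted p = 0.0363 in limma). For these losses the cause was not tested. With the actin ratio Mup3 turned to 0.14 at the end and to -0.30 between times in testosterone mice, and Mup5 to 0.38 for the change of the effect and 0.15 between times in testosterone mice. With 1 mouse left out the change of effect of Mup3 ranged from -0.25 to 0.13, and Mup5 between times in vehicle mice from -0.13 to 0.057. The replicate block moved no Mup call: Mup3 gave -0.44 (adjusted p = 0.0345) and -0.52, and Mup5 0.51 (adjusted p = 0.0232) and 0.28, while all calls went to 1906 at the end, against 2344 without it. The numbers did not pair the mice, with correlations of same-numbered deviations between -0.148 and -0.00291, and 0 of 12 mice correlated best with the mouse of their number. All calls at the end were 1509 without a filter and 86 when the actin ratio was added. Subtracting array medians turned the split after withdrawal to 333 higher and 215 lower, against 262 and 331.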

Other observations

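The genes that flank the Mup cluster on chromosome 4 in RefSeq's GRCm38.p6 order are described here by their values. The nearest 3 protein-coding genes with a named probe set on one side were Slc46a2, Snx30 and Hsdl2, and on the other Zfp37, Slc31a2 and Fkbp15, chosen after the Mup values were seen. Hsdl2, a hydroxysteroid dehydrogenase-like protein, was higher by 0.53 ± 0.18 with testosterone at treatment end (adjusted p = 0.0455 in limma) on 1 of its 2 probe sets, and the other gave 0.39 ± 0.14 (adjusted p = 0.0585). After withdrawal these gave 0.15 and 0.09. Thus 1 of 6 tested flanking probe sets was called at treatment end, beside 19.4% of all probe sets tested, and 0 of 6 after withdrawal, beside 4.9%. The tested probe sets of Snx30, Slc31a2 and Fkbp15 were not called at either time, and those of Slc46a2 and Zfp37 did not pass the filter.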
